A study of Mus musculus with 9 samples.

Results

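The regions described here are stretches of DNA inside mouse genes that were called accessible in CD8 T cells on days 8 and 21 after transfer into tumor-bearing hosts, but not on day 4. They were chosen by the calls themselves. Peaks of all 9 libraries on chromosomes 1 to 19 and X were merged wherever they shared at least 1 base, which gave 62963 union regions. A region was kept when it had a peak in all 6 lists of days 8 and 21 and in no list of day 4, overlapped the body of a protein-coding gene and lay over 1 kb from any gene end. This left 5920 regions, called late intragenic regions below, in 3662 of 21631 protein-coding genes. Because the presence and absence of peaks chose them, their difference from day 4 is a description with no test, while the comparison of day 21 with day 8 was not used by the rule.

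The libraries are ATAC-seq, in which the Tn5 transposase cuts open DNA and leaves sequencing adapters there. The cells were wild-type P14 CD8 T cells, whose transgenic receptor sees the GP33-41 peptide of lymphocytic choriomeningitis virus, from donors carrying a TCF-1-GFP reporter on C57BL/6. All hosts carried B16.F10 melanoma made to express the viral glycoprotein, and all received 500000 naive (CD44-, GFP+) P14 cells 8 days after the tumor. CD45.1+CD44+ CD8 T cells were sorted from the tumor-draining lymph nodes on day 4, day 8 or day 21 after transfer, with 50000 cells and 3 libraries for each day and no untransferred control. The sources used here give neither the ages of the mice nor the number of animals behind the 3 libraries of a day, so every p-value measures only the spread between lists, which may be technical.

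Most of a mammalian gene's regulatory DNA lies away from its promoter, and enhancers often sit in introns of the gene they act on or of a neighbour. Activated CD8 T cells are known to open and close many such sites as they pass from early activation to effector, memory-like and exhausted states. ATAC-seq of bulk cells shows where DNA is open; more cells with an open site and more opening in each cell cannot be told apart. Intron and exon boundaries were not used here, so the regions are placed by gene body only.

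For a few of these regions the letters can be shown, because they lie over an alternative transcription start listed by RefSeq (GRCm38.p6, the assembly of mm10) well inside the gene body. The 5 stretches below belong to genes of the T cell and chromatin lists or to the 10 genes with the most late intragenic regions, and were picked after the values were seen, to show how unlike each other such sites are in base composition. Each runs 5′ to 3′ on the strand of the gene and ends at the base before the listed start. Capitals mark matches on either strand to 7 short motifs, which were TGTGGT (RUNX), CCGGAA (ETS), TGANTCA (AP-1), CTTTGA (TCF/LEF), GTGTGA (T-box), GGGCGG (SP/KLF) and GTAAACA (forkhead), and no 2 matches in these stretches share bases.
Foxp1, chr6:99028299-99028548, minus strand: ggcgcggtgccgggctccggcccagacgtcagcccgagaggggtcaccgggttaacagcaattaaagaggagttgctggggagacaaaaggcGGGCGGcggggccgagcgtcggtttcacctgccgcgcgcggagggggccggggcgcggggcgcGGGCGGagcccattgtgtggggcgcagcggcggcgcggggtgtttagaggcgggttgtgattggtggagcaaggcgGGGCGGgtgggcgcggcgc
Hdac7, chr15:97831496-97831745, minus strand: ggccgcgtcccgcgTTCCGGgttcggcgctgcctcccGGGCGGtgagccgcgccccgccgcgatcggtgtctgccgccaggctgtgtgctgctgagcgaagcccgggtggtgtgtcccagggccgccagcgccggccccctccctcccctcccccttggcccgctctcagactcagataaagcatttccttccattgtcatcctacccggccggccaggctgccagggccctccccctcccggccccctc
Tet3, chr6:83441679-83441928, minus strand: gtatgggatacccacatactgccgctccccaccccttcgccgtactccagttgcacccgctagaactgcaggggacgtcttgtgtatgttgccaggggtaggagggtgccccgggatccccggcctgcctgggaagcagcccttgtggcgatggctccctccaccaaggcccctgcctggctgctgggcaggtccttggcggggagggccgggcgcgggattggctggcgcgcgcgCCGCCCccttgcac
Entpd1, chr19:40659533-40659769, plus strand: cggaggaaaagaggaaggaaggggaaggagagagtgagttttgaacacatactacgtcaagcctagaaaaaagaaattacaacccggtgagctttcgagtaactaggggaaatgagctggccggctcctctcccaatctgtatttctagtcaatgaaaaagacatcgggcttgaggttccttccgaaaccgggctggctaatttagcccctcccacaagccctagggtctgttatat
Fyb, chr15:6579669-6579846, plus strand: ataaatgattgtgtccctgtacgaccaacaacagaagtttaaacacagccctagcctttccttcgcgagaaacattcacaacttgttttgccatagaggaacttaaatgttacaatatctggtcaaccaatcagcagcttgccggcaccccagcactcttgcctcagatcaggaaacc

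Foxp1 encodes a forkhead factor that keeps naive T cells quiescent. Its stretch of 250 bases was 74.0% G and C, held 34 CpG and matched the SP/KLF letters 3 times. The region over it, 807 bp wide, was among the weak ones, with a fold enrichment of 3.20, 3.14 and 3.17 in the day 21 lists and 3.02, 3.88 and 3.29 in the day 8 lists. Hdac7 encodes a class IIa histone deacetylase known from thymocytes, and Tet3 an enzyme that oxidises methylated cytosine. Their stretches held 25 and 17 CpG, with an ETS and an SP/KLF match in Hdac7 and 1 SP/KLF match in Tet3. The Tet3 region had a fold of 4.35, 4.79 and 5.36 on day 21 and of 4.99, 6.58 and 6.64 on day 8. Entpd1 encodes CD39, an ectoenzyme that marks exhausted CD8 T cells, and Fyb the adaptor ADAP, which links the T cell receptor to integrins. Their stretches were 48.1% and 44.9% G and C, held 8 and 4 CpG and matched none of the 7 motifs, which says only that these letters are not in these windows. The Entpd1 region had a fold of 3.56, 3.54 and 3.48 on day 21 and of 3.91, 4.46 and 4.21 on day 8, so the lists of the days did not overlap, without passing the test described below (adjusted p = 0.280, limma).

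Such starts were the exception among late intragenic regions. Of the 4722 in a single gene with a RefSeq start entry, 139 (2.94%) lay over a start window of their own gene, which runs from 250 bases before a start to 50 after it. Of the 3278 such regions called in all 9 lists, here called constant intragenic regions, 697 (21.3%) did. The 158 start windows under late intragenic regions had a median of 58.0% G and C and 11.5 CpG, against 60.4% and 16 CpG for 827 windows under constant ones and 52.4% and 6 CpG for all 32817 windows. SP/KLF letters were in 49.4% of the first set, 59.6% of the second and 32.7% of all windows. ETS letters were in 11.4%, 21.8% and 12.02%, AP-1 letters in 8.86%, 3.87% and 6.75%, RUNX letters in 6.96%, 12.2% and 14.04%, TCF/LEF letters in 8.23%, 10.04% and 13.8%, T-box letters in 10.8%, 7.86% and 12.3%, and forkhead letters in 1.90%, 2.18% and 3.16%. A match is a description of letters, not a bound site.

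The late intragenic regions were mostly weak peaks, and the lists that chose them differ in length and in signal. The day 4 lists held 19499 to 22250 peaks, the day 8 lists 47513 to 50835 and the day 21 lists 46492 to 51671. The smallest local background of a list, recovered from its values and standing for depth, was 2.62 to 3.38 on day 4, 2.14 to 2.63 on day 8 and 2.33 to 3.08 on day 21, so the day 4 libraries were not shallower by this measure. Signal over background was lower on day 4, however. At the 4113 constant intragenic regions the median fold enrichment was 5.15 to 5.22 in the day 4 lists, 8.30 to 8.33 in the day 8 lists and 8.23 to 8.35 in the day 21 lists. The late intragenic regions themselves had median folds of 5.31 to 5.42 in the day 21 lists and 5.40 to 5.51 in the day 8 lists. The part of this lower signal in the absence of day 4 calls was not tested.

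When each list was reduced to its strongest 19499 peaks, the length of the shortest one, the same rule found 172 regions in place of 5920, and 136 of these shared bases with a late intragenic region. In every single day 21 list 13.9% to 14.1% of late intragenic regions were among the strongest 19499 peaks, and in every day 8 list 13.6% to 14.5%. For constant intragenic regions these shares were 92.3% to 92.9% on day 21 and 90.6% to 91.4% on day 8. Only 136 late intragenic regions (2.30%) were among the strongest peaks of all 6 lists, and 3906 (66.0%) were so in none. In the genes of the T cell and chromatin lists below, the rule then found 1 region each in Fyn, Pdcd1lg2, Tgfbr2 and Arid1b, all of which shared bases with a late intragenic region.

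**Figure D1:**
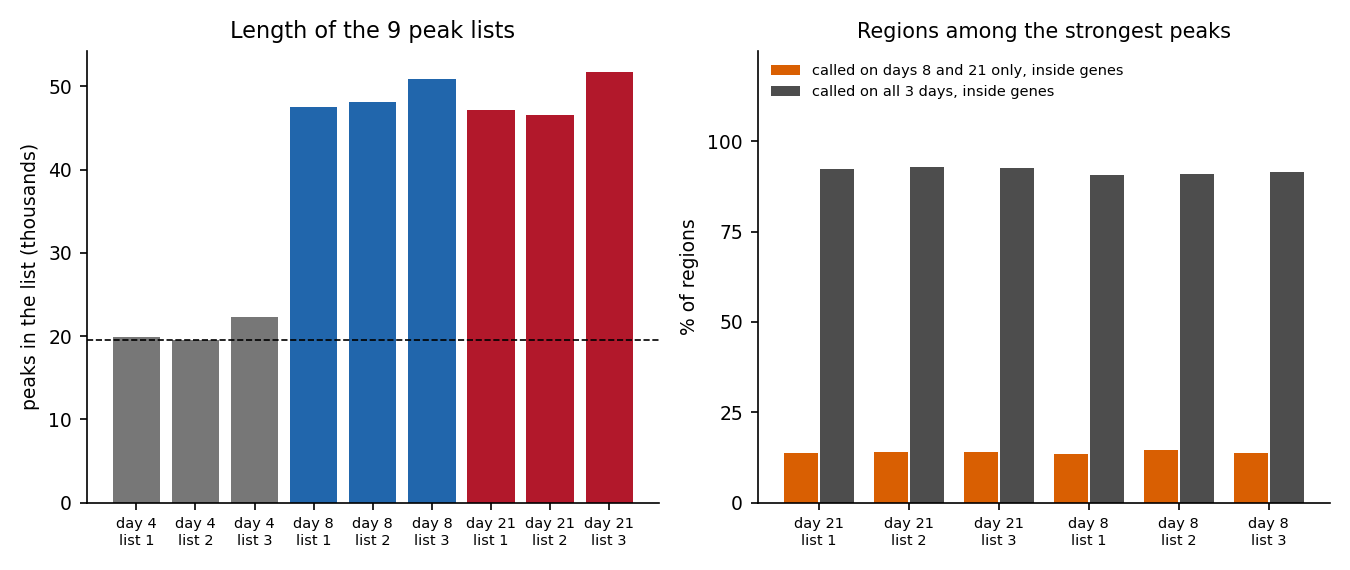
Left, number of peaks in each of the 9 lists, with a dashed line at the shortest list (19499). Right, share of the late intragenic regions (orange) and of the constant intragenic regions (grey) that are among the strongest 19499 peaks of each day 21 and day 8 list: 13.6% to 14.5% of the late ones against 90.6% to 92.9% of the constant ones.

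Late calls of any place made up 12094 of the 62963 union regions (19.2%). Of these, 5920 (48.9%) lay inside genes, 4641 between genes and 1533 within 1 kb of a gene end. Of the 15109 regions called in all 9 lists, 4113 (27.2%) lay inside genes and 8003 (53.0%) near a gene end. The 35760 regions of neither pattern were placed much as the late ones, with 49.3% inside genes and 12.8% near a gene end. Over all union regions these shares were 44.0% and 22.4%. The late intragenic regions had a median width of 493 bp (quartiles 393 and 629, range 217 to 1909), against 808 bp for constant intragenic regions. Late regions between genes had the same median width, 493 bp. Just outside the rule, 1894 intragenic regions with a peak in all 6 later lists and in 1 day 4 list had median folds of 6.24 on day 21 and 6.23 on day 8. A further 2169 with a peak in 5 of the 6 later lists and none on day 4 had 4.53 and 4.57, while the late intragenic regions had 5.42 on day 21 and 5.48 on day 8. On the distance rule, 100 late intragenic regions lay 1001 to 1250 bp from a gene end, with folds of 4.61 and 4.70, and 110 late regions in a gene body lay 751 to 1000 bp from one, with 4.79 and 4.84.

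Most late intragenic regions were far from a gene end. Their median distance to the nearest gene end was 17.3 kb, 66.2% lay over 10 kb and 19.6% over 50 kb away, against 13.7 kb, 59.1% and 16.7% for constant intragenic regions. They were spread nearly evenly along the gene, whereas constant ones leaned to the 5′ part. In 5 equal parts of the gene body from 5′ to 3′, the late regions fell 18.8%, 21.6%, 20.9%, 20.4% and 18.3%, and the constant ones 25.9%, 23.3%, 19.9%, 17.5% and 13.4%. The median position was 49.1% of the way along the gene for late regions and 40.5% for constant ones. The nearest day 4 peak of any kind was a median of 13.6 kb away (quartiles 5.67 and 31.2 kb). It lay within 1 kb for 326 regions (5.51%) and over 50 kb away for 879 (14.8%). The nearest other late intragenic region was a median of 37.1 kb away, and 22.6% had another within 10 kb. Among all intragenic union regions, the share that was late ran from 18.5% on chromosome 19 to 23.4% on chromosome 11.

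**Figure D2:**
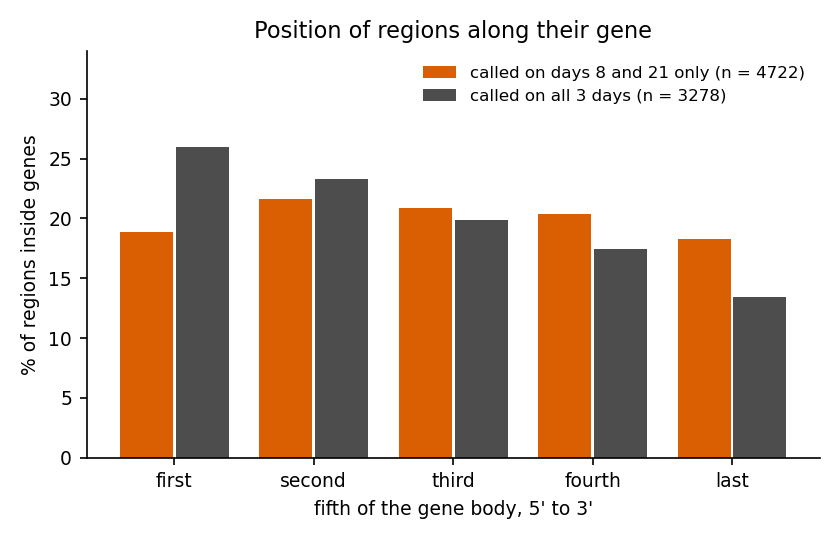
Share of regions in each of 5 equal parts of the gene body, from 5′ to 3′, for 4722 late intragenic regions (orange) and 3278 constant intragenic regions (grey) in single genes of known strand. Each part holds 18.3% to 21.6% of the late regions, while the share of constant regions declines along the gene, with 25.9% in the first part and 13.4% in the last.

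At least 1 late intragenic region was found in 16.9% of protein-coding genes. A single one was found in 2472 genes, 2 in 671, 3 or 4 in 370 and 5 or more in 149. Genes with such a region were long, with a median of 60.2 kb against 17.3 kb for all protein-coding genes. The median was 57.2 kb for genes with a constant region inside and 41.7 kb for the 8540 with any union region inside. Genes too short to hold a region over 1 kb from both ends cannot enter by the rule. Over the 3662 genes the number of regions followed gene length with a Spearman correlation of 0.461 and a Pearson correlation of 0.357, a description across genes that are not independent replicates. A region called in all 9 lists was present in the body or within 1 kb of it in 71.4% of these genes, against 67.8% of the 8540 genes with any union region inside. No day 4 call at all, in the body or within 1 kb, was found for 672 of them (18.4%), against 1769 of 8540 genes with any union region inside (20.7%).

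The genes with the most late intragenic regions included regulators of T cells and long genes best known from other tissues. Foxp1 and Arhgap26, the gene of a GTPase-activating protein, had 12 each. Fyn, which encodes a Src family kinase at the T cell receptor, Bach2, which encodes a repressor that restrains effector differentiation, Sh3kbp1, an adaptor gene of receptor endocytosis, and Sox5, a factor gene known from cartilage and neurons, had 11 each. Prkca (protein kinase C alpha), Atxn1 (ataxin-1) and Elmo1, a partner of Dock proteins in Rac activation, had 10 each, and Chst11, a chondroitin sulfotransferase gene, had 9. Among them Fyn was the densest, with 5.62 regions per 100 kb of gene body, and Sox5 the sparsest, with 1.15. At equal list length the rule found 1 region each in Fyn, Sh3kbp1, Atxn1 and Elmo1, all sharing bases with a late intragenic region, and none in the other 6 genes.

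Inside Fyn, the 11 regions lay 16.6 to 151 kb from the 5′ end of a body of 196 kb, all downstream of the constant region nearest that end. The strongest of them, at chr10:39455660-39456412 on mm10, had a fold of 7.68, 8.30 and 7.82 in the day 21 lists and of 6.21, 6.74 and 6.41 in the day 8 lists. The day 21 lists were all above the day 8 lists there, by a difference that did not pass the test (adjusted p = 0.145, limma). In Foxp1 the 12 regions were spread over 24.5 to 494 kb of a body of 597 kb that also held 8 constant regions. The strongest, at chr6:99420555-99421058, had a fold of 9.47, 6.64 and 9.35 on day 21 and of 9.64, 8.23 and 9.07 on day 8, with overlapping lists. In Bach2 the 11 regions had mean folds of 3.37 to 6.64 on day 21 and 3.36 to 6.34 on day 8, between 24.8 and 334 kb from the 5′ end. In Sox5 all 11 regions had a positive difference in rank between day 21 and day 8, 0.04 to 1.14, and none passed the test (lowest adjusted p = 0.135, limma), while the other 9 genes had regions of both signs.

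**Figure D3:**
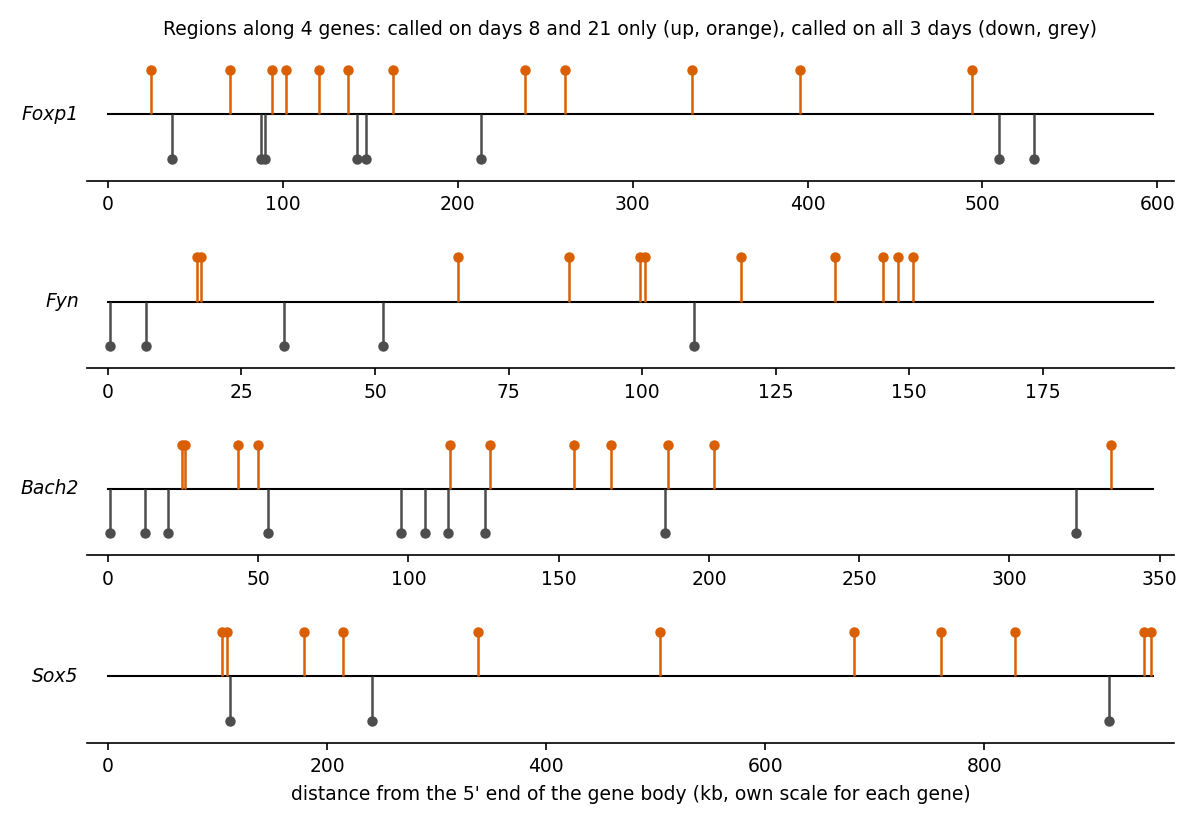
Late intragenic regions (orange, up) and regions called in all 9 lists (grey, down) along 4 of the 10 genes with the most late intragenic regions, by distance from the 5′ end of the gene body in kb. Foxp1 holds 12 late regions and Fyn, Bach2 and Sox5 hold 11 each. The first late region lies 24.5, 16.6, 24.8 and 104 kb from the 5′ end of Foxp1, Fyn, Bach2 and Sox5.

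By density, among genes with at least 5 such regions, Sae1, which encodes a subunit of the SUMO-activating enzyme, came first with 7 regions, or 10.3 per 100 kb. Gng7, a G protein gamma subunit gene, followed with 9.05, and Pik3r5, which encodes a regulatory subunit of PI3K gamma, with 7.61. Ikzf3, the gene of the lymphoid factor Aiolos, had 7.37, and Myh9, the heavy chain of nonmuscle myosin, 7.35. Sfi1, Cyfip2, Fam107b, Bicra and Bsn had 6.36 to 6.99. Cyfip2 and Ikzf3 had no constant region inside, and 12 and 10 union regions in all. Genes with no day 4 call in or within 1 kb of the body included Aff3, a nuclear elongation factor family gene, with 5 late intragenic regions, and Rfx8, Lix1, Pald1, Epb41l1, 2900026A02Rik and Gpm6b with 4 each.

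Havcr2, which encodes the inhibitory receptor TIM-3, belonged to the same group: its 3 intragenic union regions were all late. The first, at chr11:46461795-46462301, had a fold of 5.10, 4.13 and 4.94 on day 21 and of 5.45, 5.35 and 7.02 on day 8. The second, at chr11:46466675-46467351, had 8.38, 9.43 and 6.91 on day 21 and 7.51, 7.54 and 6.77 on day 8. The third, at chr11:46474106-46474693, had 8.56, 7.80 and 5.89 on day 21 and 11.8, 9.77 and 8.00 on day 8. The nearest day 4 peaks were 24.1, 29.0 and 36.4 kb away, and none of the 3 passed the test of rank between days 21 and 8 (adjusted p = 0.292, 0.458 and 0.219, limma).

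Of 30 core transcription factors of CD8 T cells, 21 had at least 1 late intragenic region, 58 in all or 1.98 per 100 kb, against 0.569 per 100 kb over all protein-coding genes. Constant intragenic regions numbered 60 in the same core genes. Over all protein-coding genes, 5970 late and 4155 constant ones were counted, once for each gene they lie in. The higher density in core genes was thus not particular to late regions. Bach2 had 11, Ikzf3 6, and Tox, a factor of exhausted cells, Nfatc1, a factor downstream of calcium signals, and Bcl11b, a factor of T cell identity, 4 each. Lef1, Runx1, Nfatc2 and Stat4 had 3 each, Bcl6, Foxo1, Zeb1, Ikzf1 and Ets1 2 each, and Tbx21, Prdm1, Ikzf2, Gata3, Batf, Stat5b and Satb1 1 each. Tcf7, which encodes TCF-1, and Eomes, Id2, Id3, Runx3, Zeb2, Tox2, Irf4 and Myb had none. The 58 regions ranked lower than most by fold enrichment over local background. Their median of the mean rank was 13.5% against 27.8% for all late intragenic regions, on a scale where 100% is the highest fold among the regions called in all 6 lists. A low fold can go with a high summit pileup where local background is high, so this rank does not describe the pileups. The highest by this rank was in Tox at chr4:6817179-6817725, 83.6 kb from the nearest day 4 peak, with folds of 7.88, 6.73 and 7.01 on day 21 and 7.29, 8.70 and 8.78 on day 8.

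T cell receptor signalling genes had late intragenic regions in 21 of 36 cases, 57 regions or 2.15 per 100 kb, with 11 in Fyn, 7 in Ubash3b, a phosphatase gene that dampens receptor signals, and 4 each in Themis and Fyb. Inhibitory receptor genes had them in 7 of 14 cases, 11 regions or 2.04 per 100 kb, with 3 each in Havcr2 and Entpd1. Cytokine receptor and STAT genes had them in 17 of 36 cases, 29 regions or 1.73 per 100 kb, led by the 5 of Tgfbr3, a coreceptor gene of TGF-beta. Chromatin regulator genes had them in 21 of 29 cases, 48 regions or 1.25 per 100 kb, led by Arid1b, a BAF complex gene, with 7. Homing and adhesion genes had them in 6 of 24 cases, 8 regions or 1.06 per 100 kb, with 3 in Itga4. Effector molecule genes, which are short, with a median of 6.59 kb, had them in 2 of 20 cases, 1 each in Prf1 and Gzmm, or 1.25 per 100 kb. Constitutive genes had them in 3 of 30 cases (0.745 per 100 kb), and long neural genes in 8 of 30, with 11 of their 22 regions in Sox5 (0.0525 per 100 kb). Constant intragenic regions numbered 61 in the receptor signalling genes, 9 in the inhibitory receptor genes and 34 in the cytokine receptor and STAT genes. They numbered 45 in chromatin regulator genes, 16 in homing, 5 in effector, 7 in constitutive and 6 in long neural genes. The counts of late regions are part of what the rule selected on, and all these counts are descriptions.

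Lists of marker genes for cell types that the gate on CD45.1+CD44+ CD8 T cells should remove also held more peaks in the later lists. Some of their genes are also in the CD8 T cell lists used above. These are Gata3 and Eomes among core factors, Ctla4 among inhibitory receptors and Il2ra among cytokine receptors. Peaks there cannot be assigned to another cell type. The lists as a whole did too, with means of 20534 peaks on day 4, 48811 on day 8 and 48420 on day 21. Over all protein-coding genes, 16.9% held at least 1 late intragenic region. B cell marker genes held 1 peak in each day 4 list, 14 to 16 in the day 8 lists and 12 to 17 in the day 21 lists, and late intragenic regions lay in 3 of 10, namely Pax5 with 3, Blk with 2 and Ebf1 with 1. Of the defining B cell genes, Ms4a1 and Fcer2a had no peak in any list. Cd79b had none on day 4 and 1 in every later list. Cd79a had none on day 4, 0 to 1 on day 8 and 1 in every day 21 list, and Cd22 none on day 4, 0 to 1 on day 8 and 1 to 2 on day 21. CD8 T cell marker genes held 13 to 17, 35 to 38 and 38 to 40 peaks on days 4, 8 and 21, with late intragenic regions in 3 of 10, and Cd8a, Cd8b1, Cd3d, Cd3e and Cd3g had a peak in every list. Thy1, a surface marker of T cells, had no peak on day 4, 2 in every day 8 list and 1 to 2 on day 21. Myeloid and dendritic markers held 9 to 11, 27 to 33 and 26 to 29 peaks (late intragenic regions in 1 of 12, Zbtb46), stromal and endothelial markers 3 to 7, 16 to 20 and 18 to 21 (3 of 10), melanocyte markers 5 in each day 4 list, 8 to 9 on day 8 and 10 to 11 on day 21 (1 of 8, Kit), CD4 and regulatory T cell markers 12 to 15, 29 in each day 8 list and 27 to 30 on day 21 (5 of 9), and NK cell markers 4 to 7, 10 to 12 and 12 in each day 21 list (1 of 8, Fcer1g). Adgre1, Lyz2, Tyr, Tyrp1, Cdh5, Tek and Ncr1 had no peak in any list. Pmel of the melanocyte list held 3 to 4 peaks in the lists of each day, which was most of that list's day 4 count and did not rise. Tyrobp and Fcer1g of the NK cell list had none on day 4 and 1 in every later list. Kdr had none on day 4 and 1 to 2 on each later day, Pdgfra none on day 4, 1 to 3 on day 8 and 1 to 2 on day 21, and Kit none on day 4, 2 to 3 on day 8 and 3 on day 21. Itgax, a dendritic cell gene, had 2 peaks in each day 8 list and none on day 4 or day 21. The part of other cell types in the late calls was not tested.

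The 8 strongest late intragenic regions, by mean rank over the 6 lists and 1 for each gene, lay in Abi2, Zscan30, Tatdn1, Aff3, Pilrb1, Lpo, Rai14 and Tmod3. Abi2 encodes a component of the WAVE actin complex. Its region at chr1:60447009-60447542 had a fold of 12.4, 13.2 and 13.5 in the day 21 lists and of 12.1, 12.8 and 12.7 in the day 8 lists, in a stretch with no day 4 peak within 29.8 kb. The region in Aff3, at chr1:38557420-38558337, had 10.7, 10.7 and 11.4 on day 21 and 10.8, 12.2 and 13.2 on day 8, and its nearest day 4 peak was 136 kb away. The region in Rai14 was 175 kb from any day 4 peak, with 11.3, 10.9 and 11.4 on day 21 and 10.2, 10.4 and 10.05 on day 8. All 8 exceed the median fold of constant regions, and none passed the test of rank between days 21 and 8 (adjusted p = 0.262 to 0.956, limma). Pilrb1 belongs to a family of similar genes, and no source used here says what was done with reads that match more than 1 place.

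Day 21 was compared with day 8 at the same regions, to set their strength at the later time against that at the earlier one. The median rank of the late intragenic regions was 26.3% ± 0.769 in the day 21 lists and 26.7% ± 0.638 in the day 8 lists (SD, n = 3 each, two-sided exact permutation test p = 0.4, with 0.1 the smallest that 3 against 3 allows). The median width called was 353 ± 23.2 bp on day 21 and 343 ± 12.2 bp on day 8 (exact permutation p = 0.6). Summits of the same region lay 52.3 bp apart on average between a day 21 and a day 8 list and 48.8 bp apart between lists of 1 day, a difference of 3.50 bp (one-sided exact permutation p = 0.1 over the 10 partitions, which is also the lowest value possible). The correlation of rank scores across regions, a description over points that share libraries, was 0.667 to 0.691 for the 9 pairs of lists of different days and 0.753 to 0.779 for the 6 pairs of the same day. Whole summit pileups, recovered from the deposited values, gave a chi-square per region of 0.818 to 0.950 for pairs of different days and of 0.499 to 0.519 for pairs of the same day. Sampling noise alone would give 1 for counts at a fixed position without selection. Here each list gave its own summit, at regions chosen for a call in all 6 lists, which can lower the value. Both kinds of pairs lay below 1, and pairs of the same day lay lower than pairs of different days. How far the same-day values lie below sampling noise was therefore not settled. The fits of single regions below take the spread between lists of 1 day as their error. The names of the 9 lists carry 3 index numbers, 1 for each day, and whether the lists of a day are separate libraries was not tested.

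Region by region, 29 late intragenic regions were higher on day 21 than on day 8 and 22 were lower, 51 of 5920 or 0.861%. Ranks were taken within each list over the 34555 regions called in all 6 lists and turned into normal scores, so that a difference of 1 is 1 SD of the ranked regions, and each region was fitted with limma at an adjusted p below 0.05. Over all 34555 regions 0.608% were called, 0.394% as higher and 0.214% as lower, which is the background for these counts. Without adjustment, p was below 0.05 at 20% of late intragenic regions and at 16.5% of all regions. Of constant intragenic regions 8 of 4113 were called, and of late regions between genes 45 of 4641. Leaving out a list reduced the counts to 0 higher and 0 lower without day 21 list 1, 3 and 1 without day 21 list 2, 3 and 4 without day 21 list 3, 5 and 1 without day 8 list 1, 2 and 0 without day 8 list 2, and 6 and 0 without day 8 list 3. Ranking by −log10 p in place of fold gave 199 higher and 159 lower, 6.05% of late intragenic regions against 7.55% of all regions. By fold their share was above that of all regions, and by −log10 p it was below.

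**Figure D4:**
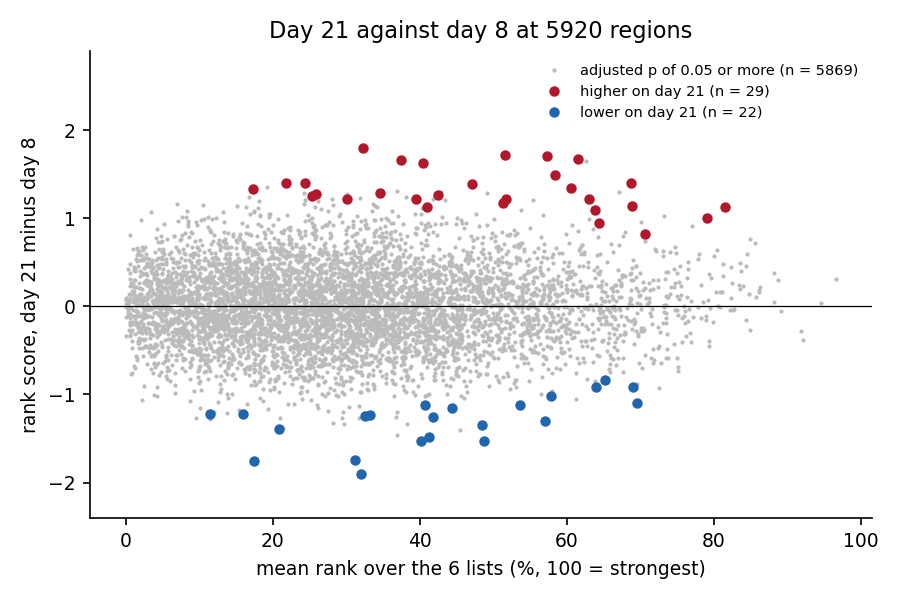
Difference in rank score, day 21 minus day 8, against the mean rank over the 6 lists, for each of 5920 late intragenic regions. The 29 regions higher on day 21 (red) lie between 0.82 and 1.80 and the 22 lower ones (blue) between -1.90 and -0.83, and the other 5869 (grey) did not pass the threshold.

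Regions with large differences were named only if their lists of the 2 days did not overlap. All 29 higher and all 22 lower regions met this, as did 1192 of the 5869 regions that missed the threshold. Of the 8 largest positive differences among the regions past the threshold, 3 lay in signalling genes. Regions that missed the threshold had differences of up to 1.65. Vav3 encodes a guanine nucleotide exchange factor downstream of lymphocyte receptors. Its region at chr3:109361869-109362537, 21.4 kb inside the gene, had a fold of 7.82, 7.54 and 6.80 in the day 21 lists and of 4.78, 3.45 and 3.63 in the day 8 lists, with summit pileups of 32, 29 and 30 against 14, 11 and 13. All day 21 lists stood above all day 8 lists, and the rank score differed by 1.80 ± 0.29 (SE, adjusted p = 0.0235, limma). Ldlrad4 encodes a membrane protein that dampens TGF-beta signals, and its region on chromosome 18 had 12.2, 10.9 and 9.91 on day 21 and 6.29, 6.78 and 7.21 on day 8 (1.399 ± 0.19, adjusted p = 0.0160, limma). Prex2 encodes an exchange factor for Rac, and its region at chr1:11229347-11230118 had 7.96, 8.55 and 7.30 on day 21 and 4.15, 5.05 and 3.86 on day 8 (1.66 ± 0.25, adjusted p = 0.0196, limma). The nearest day 4 peak of that region was 903 kb away.

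Others of these 8 regions lay in genes best known outside T cells. The Nrxn3 region, in a gene for a synaptic adhesion protein and 642 kb from any gene end, had a fold of 12.1, 9.30 and 10.8 on day 21 and of 6.06, 4.76 and 7.17 on day 8 (1.67 ± 0.28, adjusted p = 0.0265, limma). Cntln, a centrosome protein gene, had a difference of 1.72, Adgb, the androglobin gene, of 1.71, Vmn2r92, a vomeronasal receptor gene, of 1.63, and Suclg2, a gene of a mitochondrial succinyl-CoA ligase subunit, of 1.48. In each of them the day 21 folds lay above the day 8 folds, as the choice of named regions required. Vmn2r92 belongs to a large family of similar genes, with the same limit on reads as for Pilrb1. The remaining 21 regions higher on day 21 had smaller differences, from 0.82 upwards, and included regions in Inpp4b, a phosphoinositide phosphatase gene, Pde4d, a cyclic AMP phosphodiesterase gene, and Prkce, a protein kinase C gene, named here after their values were seen.

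Among the regions that were lower on day 21 was that of an effector transcription factor. Tbx21 encodes T-bet, the factor of effector differentiation and interferon-gamma expression. Its single late intragenic region, at chr11:97101736-97102244 and 3.73 kb from a gene end, had 3.68, 4.25 and 5.96 on day 21 and 7.67, 8.23 and 8.17 on day 8 (-1.53 ± 0.31, adjusted p = 0.0496, limma). The day 21 folds were all below the day 8 folds, as the choice of named regions required. The Tbx21 region was the only one of the 58 regions in core factor genes that passed. For comparison, 0.861% of all late intragenic regions and 0.608% of all regions called in all 6 lists passed.

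Among the regions past the threshold, other large negative differences were those in Hfm1, a meiotic helicase gene (-1.90), Brf1, which encodes a subunit of the RNA polymerase III factor TFIIIB (-1.75), Bcas3 (-1.52), Hsf5, a heat shock factor family gene (-1.49), Tnrc6c, a gene of microRNA silencing (-1.40), and Ptpn9, a tyrosine phosphatase gene (-1.35). Hsf5 had the smallest SE of the rank score among these 6 (0.21), with a fold of 4.43, 4.50 and 5.15 on day 21 and of 8.90, 8.02 and 8.00 on day 8 (adjusted p = 0.0180, limma). Of the 22 regions lower on day 21, 7 lay on chromosome 11, as did 0 of the 29 higher ones and 471 (7.96%) of all late intragenic regions, a split noticed in the values and given without a test. The median distance to a gene end was 30.5 kb for the higher regions and 13.8 kb for the lower ones. None of the named regions passed without day 21 list 1, and none changed direction under any alternative run. With a list left out, the choice of named regions already fixed the direction.

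**Figure D5:**
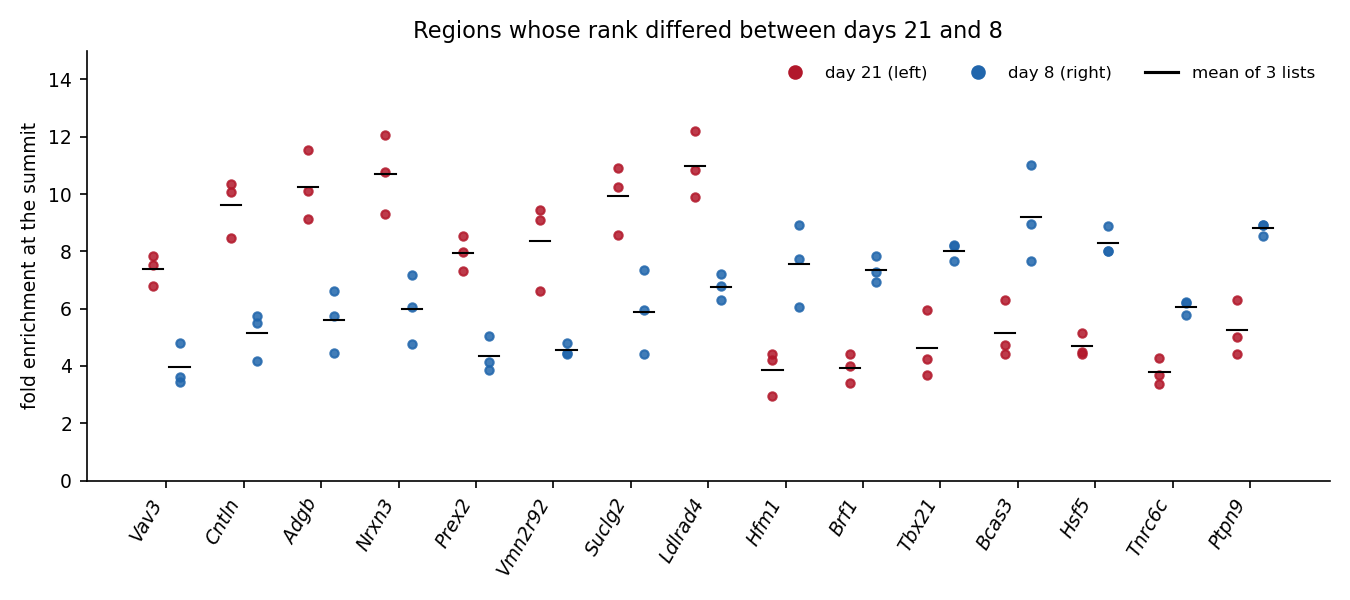
Fold enrichment at the summit in each day 21 list (red, left) and day 8 list (blue, right) for named regions, labelled by gene, with black bars at the mean of 3 lists. The 8 regions from Vav3 to Ldlrad4 have all day 21 lists above all day 8 lists, and those from Hfm1 to Ptpn9 all below, as the choice of named regions required.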

How the data were processed

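ATAC-seq was measured in 9 libraries, 3 for each of days 4, 8 and 21. Sample titles gave the group and the replicate number, since the genotype tag holds the time point and the time point tag the genotype. The submitters' processing notes name MACS2, Picard, deepTools 2.0, BWA 0.7.15 and mm10 without their roles. MACS2 settings, read filters and any Tn5 shift are not stated in these sources. Each unnormalised list was deposited per library by the authors, so peaks were called per sample, and the deposited columns hold a score, the fold enrichment of the summit over local background, −log10 of the p-value and of the q-value, and the summit position. All deposited peaks had a q of 0.05 or less. A score, fold or −log10 p is the peak's own value as the authors' peak caller wrote it and was used only to rank and describe peaks within a list. Read totals are not in the lists. Depth was described by whole summit pileups, recovered from fold and −log10 p for at least 99.995% of the peaks of each list (tolerance 0.001 in −log10 p).

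Of 353507 peaks, 212 on chromosome Y and the mitochondrial chromosome were left out. Coordinates are 1-based on mm10. Gene bodies came from RefSeq, GRCm38.p6, and strands and starts from its promoter table, which covers 2929 of the 3662 genes. Of 304 symbols in 16 lists, 303 matched. The members and the lists were chosen with earlier results of these data known. Named genes are the 10 with the most members, the 10 densest, the core list, the 8 members with the largest difference in each direction among those past the threshold whose lists do not overlap, and the 8 strongest, with up to 4 examples from other lists. Ranks of fold enrichment were turned into normal scores and fitted in R 4.3.3 by limma 3.58.1, with trend and robust settings and Benjamini-Hochberg adjustment over all 34555 regions. The fit was also run on simulated data with known changes and independent noise in each list. Such data cannot show how it behaves if the lists of a day are not independent. Single values were compared by exact permutation of lists. Other steps ran in Python 3.11.15 with scipy 1.17.1, numpy 2.4.6, pandas 2.3.3 and matplotlib 3.10.9. Alternatives changed the q threshold, list length, merging, gene end distance, ranked value, scale, low-rank filter, spread, block and each replicate. A precision by counting is not given, since lists hold no read totals. Exons, introns and motifs outside start windows were not analysed here. Some items that the rule on named genes or the marker lists would name are not reported here.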

Additional observations from a re-analysis of the deposited data

Results flagged for a closer look

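Peaks were also found on chromosomes not used here, above the 3 that a count of 0 allows. Summed over the 3 lists of a day, chromosome Y held 62 peaks on day 4, 62 on day 8 and 70 on day 21. The mitochondrial chromosome held 6 on day 4, 6 on day 8 and 6 on day 21. Nothing in the design makes 0 the count to look for there, and no control library was used here, so these values are a description only. Groups of 3 lists are too small for a check of single lists that stand apart.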

How the results depend on the processing

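The number of late intragenic regions, 5920, was 5576 to 6140 with other merging, distance and q settings, 6083 to 6958 with any of the 9 lists left out, 5682 with over 1 kb from the ends of all RefSeq genes, an alternative chosen after seeing the data, and 172 with lists of equal length. Of the counts in named genes, 666 stayed within 1.5 times and 54 moved, 39 of them at equal list length. Regions higher on day 21 were 199 ranked by −log10 p, 48 on centred log2 fold, 15 without trend and robust fitting, 25 without the lowest-ranked regions and 0 to 6 with a list left out. Regions lower on day 21 were 159, 32, 9, 17 and 0 to 4 under the same settings. Both directions together, 6.05% of late intragenic regions were called by −log10 p against 7.55% of all regions (2610), so their share fell below that of all regions there, and also with day 21 list 1 or any day 8 list left out. It was 1.35% against 0.978% (338) on centred log2 fold, 0.405% against 0.234% (81) without trend and robust fitting, and 1.38% against 0.810% (210) without the lowest-ranked regions. The cause of these changes was not tested. With the replicate number as a block, 18 were higher and 9 lower, 0.456% against 0.295% of all regions. The numbers do not pair the lists, since deviations of same-numbered lists correlated at 0.016, -0.002 and 0.019, and not every list correlated best with its own number. Named regions kept direction in all 171 refits and their call in 81. With a list left out, the direction was fixed in advance, because the lists of the 2 days do not overlap at named regions. Refits of the same scores with other fit settings could not change it either. The difference in median width was 10.5 bp, 5.08 to 18.2 bp with single lists left out, and -2.83 bp without day 21 list 3. The difference in median rank was -0.81 to -0.03 percentage points over all alternatives and that in summit distance 2.72 to 4.14 bp. Lists without read totals allow no interval on a single value.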
